A study of Mus musculus with 28 samples.

Results

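Wide H3K27me3 domains are here the peaks of 10 kb or more, on chromosomes 1 to 19, in the authors' deposited table of the repressive histone mark H3K27me3 in mouse hair follicle stem cells. The rule used the length of a peak and no difference between ages, and it selected 3157 of the 67985 peaks, or 4.64%. The cells came from skin of strain 132-C67BL/6J, as the labels spell it, and were sorted as CD34-positive, α6-integrin-positive cells from young mice of 6 months and old mice of 24 months. Both ages carried no transgene or treatment that the labels name, and whether a sample pooled several mice was not given in the labels used here. H3K27me3 was profiled in 3 young and 3 old samples, H3K4me3 and RNA polymerase II (Pol2) in 2 and 2 each, open chromatin by ATAC-seq in 4 and 4, and RNA in 3 and 3. The series title asks whether ageing lowers accessibility at bivalent promoters, which carry H3K27me3 together with H3K4me3.

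H3K27me3 is placed by Polycomb repressive complex 2, whose catalytic subunit is Ezh2 or Ezh1, and it marks genes that a lineage keeps silent. Narrow peaks cover single promoters, whereas broad domains form over clusters of CpG-rich promoters, classically at Hox genes and at other transcription factor genes that direct embryonic patterning. In adult stem cells of the skin such domains keep genes of other lineages off, and H3K4me3 at the same promoter is the hallmark of a poised, bivalent gene.

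The H3K27me3, H3K4me3 and Pol2 tables hold 1 mean level per age and no values per sample, so no spread between samples can be given for them. A level is the log2 of the mean normalized count over the whole peak, and a difference is the old level minus the young level, with the false discovery rate (FDR) of the authors' comparison. These levels, differences and FDRs are the authors' values throughout, and a peak is said to be called at an FDR under 0.05. The sorted cells are bulk samples, in which fewer marked cells and less mark per cell cannot be told apart. As a check of the label, all 8 marker genes of hair follicle stem cells, among them Cd34, Itga6, Krt15 and Lhx2, had an H3K4me3 peak at their promoter. A Pol2 promoter peak was listed for 7 of the 8, all but Tcf7l1. Of these 8 genes 0 started in a wide domain, beside 7.56% of all protein-coding genes with a placed start. For so few genes 0 lies near that share and does not set them apart. Of the other cell types, 1 of 5 melanocyte markers, 3 of 6 fibroblast markers, 2 of 6 markers of endothelium, muscle and glia and 0 of 5 immune markers had an H3K4me3 promoter peak, and none of these 22 had a Pol2 promoter peak. In the same order, 0 of 5, 1 of 6, 2 of 6 and 2 of 5 started in a wide domain.

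Promoter sequences of the called domains are shown first, because CpG content is the feature on which called domains are compared further on. They are the 250 bases before the start, from RefSeq on GRCm38.p6, for the 2 domains of lowest FDR in each direction that hold a listed protein-coding promoter and can be shown, and where a domain has several listed starts the window richest in CG is shown. Capitals mark every CG dinucleotide, which reads the same on both strands. Stra6, the membrane receptor for retinol uptake (chr9:58129099-58129348, plus strand), and Sp8, a zinc finger factor of limb outgrowth (chr12:118846983-118847232, plus strand), lie in domains called lower in old cells. Krt12, a keratin of the cornea (chr11:99422260-99422509, minus strand), and Mag, an adhesion protein of myelin (chr7:30914864-30915113, minus strand), lie in domains called higher.
Stra6: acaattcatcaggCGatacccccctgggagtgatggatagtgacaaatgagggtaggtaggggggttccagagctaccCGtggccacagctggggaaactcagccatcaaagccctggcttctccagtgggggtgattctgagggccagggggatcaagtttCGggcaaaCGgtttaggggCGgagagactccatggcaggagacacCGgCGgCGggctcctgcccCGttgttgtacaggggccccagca
Sp8: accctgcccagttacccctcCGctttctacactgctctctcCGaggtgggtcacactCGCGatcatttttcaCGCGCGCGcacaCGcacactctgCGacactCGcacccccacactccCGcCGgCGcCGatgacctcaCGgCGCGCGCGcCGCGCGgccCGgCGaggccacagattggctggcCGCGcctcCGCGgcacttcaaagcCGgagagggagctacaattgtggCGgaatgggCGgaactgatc
Krt12: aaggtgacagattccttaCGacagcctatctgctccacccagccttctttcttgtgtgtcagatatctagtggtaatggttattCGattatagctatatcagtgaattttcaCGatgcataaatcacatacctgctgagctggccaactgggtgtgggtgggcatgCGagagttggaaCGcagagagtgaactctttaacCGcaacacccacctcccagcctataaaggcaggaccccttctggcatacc
Mag: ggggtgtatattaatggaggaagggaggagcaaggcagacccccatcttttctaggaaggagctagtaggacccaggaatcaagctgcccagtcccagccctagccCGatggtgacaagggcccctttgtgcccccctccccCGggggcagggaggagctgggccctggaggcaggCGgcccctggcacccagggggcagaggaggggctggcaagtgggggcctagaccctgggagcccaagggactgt
The sequence before Sp8 holds 32 CG dinucleotides and that before Stra6 9, against 6 before Krt12 and 3 before Mag. The 4 sequences are examples chosen by FDR, and the counts over all promoters in wide domains are given below.

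The wide domains covered 66.7 Mb, which was 36.5% of the length of all H3K27me3 peaks on chromosomes 1 to 19. Their median width was 15.6 kb, with quartiles of 12.2 and 23.2 kb, and 24 reached 100 kb or more. A domain held the start of at least 1 protein-coding gene in 1408 cases and of none in 1749, and in all 1473 protein-coding genes started inside one, 7.56% of the 19494 with a placed start. By the authors' annotation 1720 domains lay within 1 kb of a transcription start, 767 were distal intergenic, 232 intronic and 160 exonic, and 29 microRNA genes started inside them.

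The ChIP-seq values are the authors' own. A level is the log2 mean normalized read count over the whole peak in one age group, a difference is the old minus the young level, and a domain was called lower or higher where the deposited FDR from DiffBind, the false discovery rate over all peaks, was under 0.05. Only group means are listed, so no spread between samples can be given, and where samples are not separate mice the p-values may measure technical spread only.

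The widest domain ran for 331 kb on chromosome 5 (136399714 to 136730582), over the starts of Myl10, a myosin light chain gene, and of Cux1, a homeobox gene. Its level was 16.04 in young and 15.59 in old cells, a difference of −0.45 with an FDR of 0.0577. Next came 240 kb on chromosome 14 around the non-coding gene 1700108F19Rik (−0.34, FDR 0.145) and 172 kb on chromosome 4 over Ambp, Kif12 and Col27a1, genes for a plasma protein precursor, a kinesin and a collagen. The Ambp domain fell from 14.76 to 14.16, an FDR of 0.00205, and a gene-free domain of 155 kb on chromosome 9 (60956739 to 61111293) fell by 0.44 with an FDR of 0.0283. The other 6 of the 10 widest were not called. They covered Pax7 and Pax2, paired-box genes of muscle and kidney (−0.23 and −0.32), Rhcg, an ammonium transporter gene (−0.27), Lbx1, a homeobox gene of muscle precursors (−0.19), Cbfa2t3, a corepressor gene (−0.04), and Cd207 with Clec4f, lectin genes of Langerhans and Kupffer cells (−0.26). At the other end, the domains just above the minimum width lay in Cdh23 (10000 bp, difference 0.22), at Pvalb (10001 bp, −0.03) and in Camta1 (10001 bp, −0.07). Those just below it lay at 8030443G20Rik (9999 bp, 0.27), Epo (9999 bp, 0.15) and Esam (9996 bp, −0.73), so that the width minimum cuts through a continuous range.

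H3K27me3 was called lower in old cells in 487 wide domains, 15.4% of them, and higher in 90, or 2.85%. Of all 67985 peaks 2.6% were called lower and 2.66% higher, so that the wide domains held 27.6% of all lower calls and 4.97% of all higher calls. The median difference was −0.09 over the wide domains (quartiles −0.33 and 0.12) and 0.12 over all peaks. When peaks under 3000 bp apart were joined before the width rule, the median of the 5526 joined domains was 0.0476, on the other side of 0. A joined domain took the mean difference of its peaks, weighted by width. Joining also let in groups of narrower peaks, and peaks under 10 kb had a median of 0.14. In domains called lower the median difference was −0.55, which left 68.3% of the young level, and in those called higher it was 0.60, or 151% of the young level. Changes of 1 log2 unit or more were few, with 20 called domains lower and 6 higher by that much.

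The share of lower calls followed width. It was 0.727% of peaks under 1 kb, 3.56% from 2 to 5 kb, 9.87% from 10 to 15 kb, 21% from 20 to 40 kb and 31.3% of the 265 domains of 40 kb or more. The median difference went from 0.18 in the narrowest class to −0.26 in the widest. Higher calls peaked at 4.86% between 5 and 10 kb and were 1.13% at 40 kb or more.

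**Figure D1:**
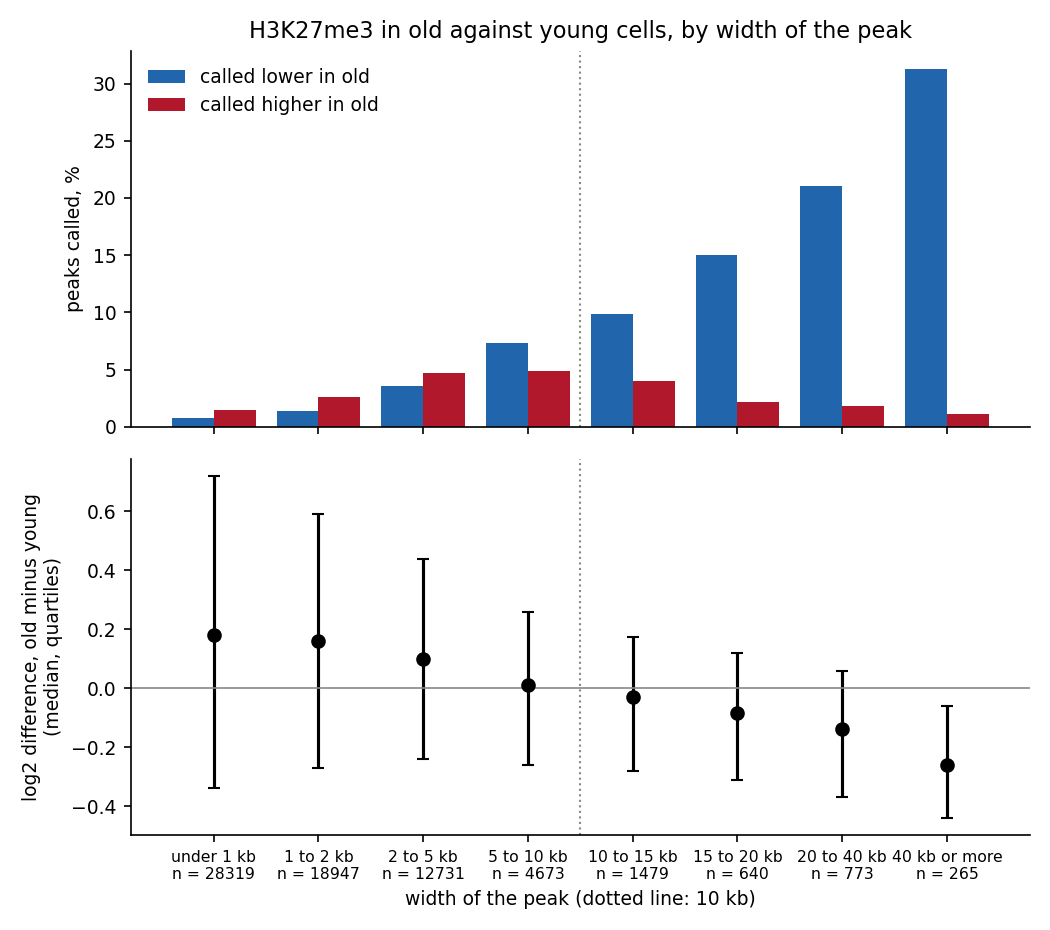
H3K27me3 peaks in 8 classes of width. The upper panel gives the percent of peaks called lower (blue) or higher (red) in old cells, and the lower panel the median log2 difference, old minus young, with quartiles as bars. Lower calls reach 31.3% at 40 kb or more, and the median crosses 0 near 10 kb.

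A wider peak collects more reads, and the level moves with width. The median young level was 10.54 in wide domains and 5.68 in narrower peaks. Of peaks with a mean level of at least 9, 15.5% of the 3142 wide ones fell and 2.86% rose by the FDR, and 10.5% and 3.1% of the 1934 narrower ones, the medians being −0.09 and −0.06. Within the wide domains the density of the mark, the level per kb, also moved with the calls. Of 4 equal groups by this density, the densest had 789 domains, of which 30.5% were called lower and 0.253% higher, and in the sparsest 9.24% of 790 were lower and 6.33% higher. The median difference was −0.25 in the densest and 0.04 in the sparsest group, with median widths of 24.5 and 12.5 kb. Domains called lower had a median young level per kb of 7.05 and those called higher 5.87, while the old levels per kb were 6.46 and 6.49. The young level enters the difference itself, so these last values describe the called domains and test nothing. The part of read depth in the relation to width was not tested.

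**Figure D2:**
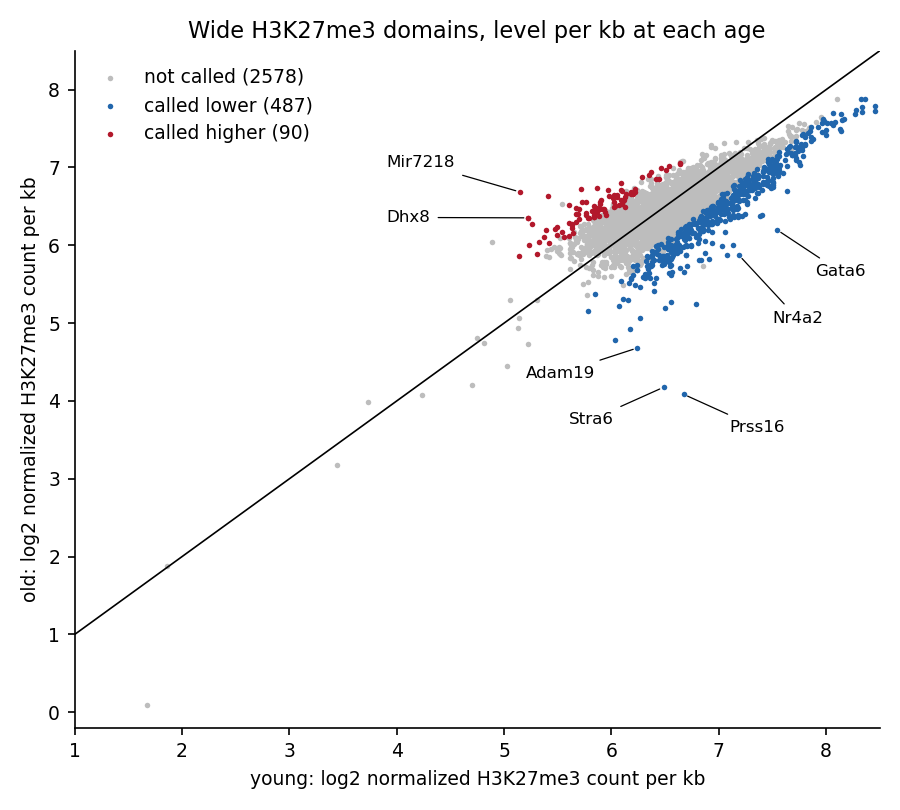
Each point is a wide H3K27me3 domain, with the log2 normalized count per kb in young cells on the x axis and in old cells on the y axis; the line marks equal levels. The 487 domains called lower (blue) include 241 in the densest of 4 groups by level per kb, and the 90 called higher (red) include 2 in that group. The 2 domains at the lowest level of the table are left out.

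The lowest FDR of all wide domains was at Gata6, a zinc finger factor of endoderm and of the sebaceous duct (chromosome 18, 11043492 to 11062178, promoter). Its H3K27me3 level fell from 11.77 in young to 10.42 in old cells, a difference of −1.36 with an FDR of 8.68e-24. Nr4a2, an orphan nuclear receptor gene, followed at −1.32 (chromosome 2, 57096901 to 57114898, FDR 2.2e-20). The promoter domain of Stra6 fell from 10.06 to 7.75, a difference of −2.31 (chromosome 9, 58126460 to 58138372, FDR 5.3e-20). A larger fall, of 2.60, was listed at Prss16, a serine protease gene of the thymus (chromosome 13, 22007114 to 22020068), with an FDR of 0.000609 and levels of 10.37 and 7.78.

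Of the other large falls, the promoter domain of Adam19, a metalloprotease gene, fell by 1.56 (FDR 3.96e-07). A domain on chromosome 17 (29939372 to 29951075) that the authors annotate to Mdga1, a cell adhesion gene, but that lies outside its RefSeq span fell by 1.28 (FDR 3.15e-09). Adjacent domains in an exon and an intron of Syn3, a synapsin gene, fell by 1.54 (FDR 1.93e-15) and 1.25 (FDR 2.67e-05). The 10 largest falls were completed by domains with no gene, on chromosome 9 (61288584 to 61309732, −1.30) and chromosome 19 (9935117 to 9945381, −1.23).

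Most domains called higher held no protein-coding start. The largest was a distal domain on chromosome 17 (27398578 to 27412639) annotated to the microRNA gene Mir7218, from 8.96 in young to 10.50 in old cells (1.54, FDR 5.95e-12), and a second domain annotated to it (27356825 to 27369350, promoter) rose by 1.01. Inside Dscaml1, a neuronal adhesion gene on chromosome 9, 3 of the 10 largest rises lay at 1.21, 1.13 and 0.91, with FDRs from 0.000125 to 0.000163. The remaining rises were at Dhx8, a splicing helicase gene (1.13, distal), Abr, a regulator of small GTPases (1.02), Scube3, which encodes a secreted EGF-repeat protein (0.87, distal), Pla2g2a, a secreted phospholipase gene and the authors' annotation of a domain over Pla2g5 (0.84), and Flvcr2, a transporter gene (0.81, intronic). Of all 90 domains called higher 18, or 20%, held a protein-coding start, against 298 of the 487 called lower, or 61.2%. Domains with such a start had a median difference of −0.18 and those without −0.01.

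Most listed genes for transcription factors of embryonic patterning started in a wide domain, and H3K27me3 was called lower at the majority of those domains. Of 291 genes on 6 lists of such factors with a placed start, 197, or 67.7%, started in a wide domain. Of the 183 domains concerned, 115, or 62.8%, were called lower and 0 higher by the deposited DiffBind FDR, with a median of −0.45. At a deposited unadjusted p under 0.05, 1 of the 183 was higher. The other 2974 wide domains had 372 lower calls (12.5%), 90 higher calls and a median of −0.07. The listed domains were also denser, with a median young level per kb of 7.35 against 6.51. In the densest of the 4 groups, 101 of 149 listed domains (67.8%) were called lower against 140 of 640 others (21.9%), with medians of −0.46 and −0.19 and median widths of 37.2 and 21.9 kb.

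Hox genes, which set position along the body axis, had 18 of 34 starts in 5 domains, of which 4 were called lower. The domain over Hoxd3 and Hoxd8 to Hoxd13 fell by 0.64 (74.4 kb, FDR 5.47e-06), that over Hoxc9, Hoxc11 and Hoxc12 by 0.67 (FDR 2.14e-05), that over Hoxa9 to Hoxa13 by 0.58 (120 kb, FDR 0.000133) and that over Hoxd1 and Hoxd4 by 0.58 (FDR 0.000303). The domain over Hoxb8 and Hoxb9 had a difference of −0.46 and was not called.

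Homeobox genes outside the Hox clusters were the largest list, with 95 of 116 genes in 98 domains, 65 called lower and a median of −0.47. The Dlx genes of branchial arch and limb had domains over Dlx5 and Dlx6 (−0.72, FDR 3.27e-09) and over Dlx1 (−1.01, FDR 2.03e-08). Lhx9, a factor of gonad and limb, fell by 0.68 with an FDR of 8.63e-08. Members not called included 4 domains at Cux2, between 0.04 and 0.31, and Lbx1.

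The list of Pax, T-box, Gata and Zic genes had 28 of 32 genes in 27 domains, of which 16 were called lower, with a median of −0.40. After Gata6 its lowest FDRs were at Tbr1, a T-box factor of cortical neurons (−0.73, FDR 5.19e-09), at Zic2 with Zic5, zinc finger genes of the neural tube (−0.64), and at Gata3, a factor of inner root sheath and T cells (−0.67). Forkhead genes, which encode winged-helix factors, had 19 of 39 genes in 18 domains and 14 lower calls, led by Foxq1, a gene of hair shaft structure (−1.02, FDR 5.41e-08), and Foxa1, a pioneer factor of endoderm (−0.69, FDR 1.94e-06). Sox genes had 9 of 18 genes in 9 domains and 5 lower calls, with Sox17, a gene of endoderm and endothelium, at −1.03 (FDR 1.29e-11) and Sox2, of pluripotent cells and dermal papilla, at −0.69 (FDR 1.2e-06).

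Basic helix-loop-helix factors, many of which start neuron or muscle differentiation, had 28 of 52 genes in 28 domains and 13 lower calls, with a median of −0.41. Sim1, a gene of the hypothalamus, stood at −0.70 (FDR 6.33e-08) and Hand2, of heart and limb, at −0.61 (FDR 5.38e-05). This list also holds Fezf1 (−1.01) and Fezf2 (−0.62), which encode zinc finger factors of the forebrain and not helix-loop-helix proteins.

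**Figure D3:**
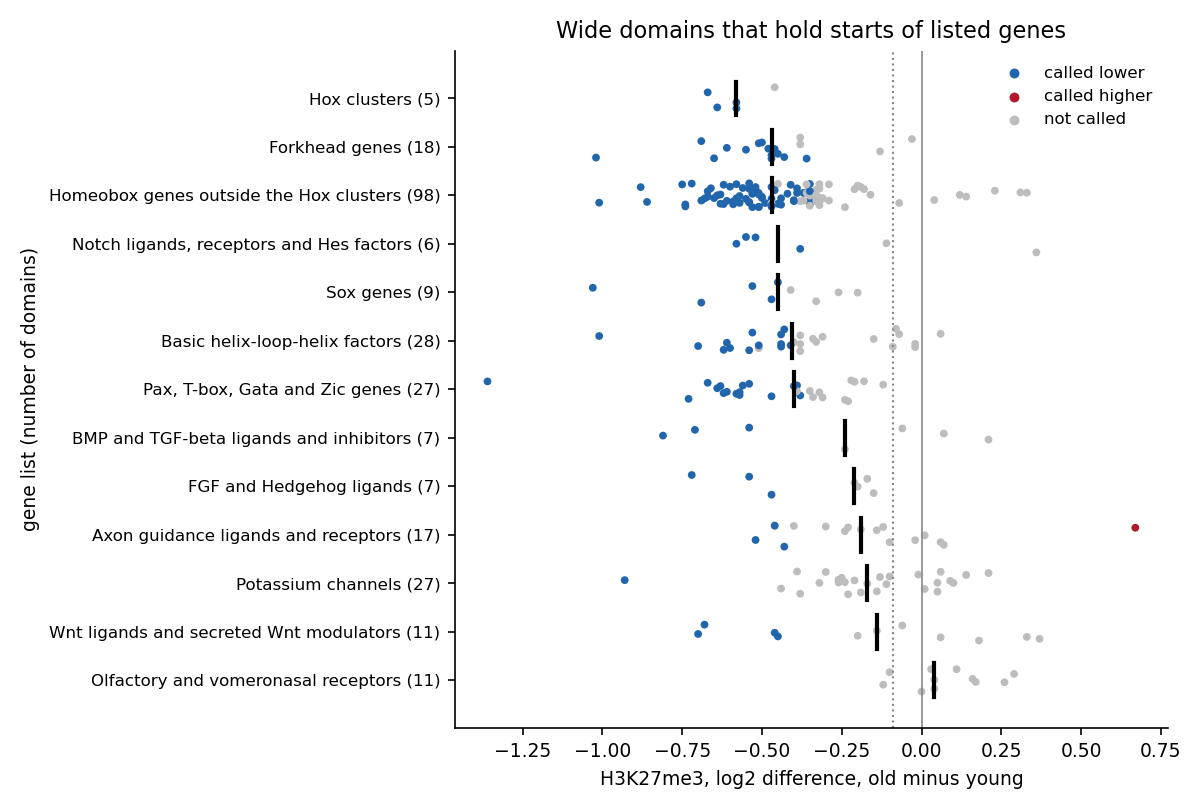
Each point is a wide domain that holds the start of a gene of the list named on the y axis, for lists with at least 5 domains (number in brackets), at its H3K27me3 log2 difference, old minus young, on the x axis. Black bars are medians of the list, the dotted line is the median of all wide domains (−0.09), and blue and red mark called domains. The 6 lists of transcription factors lie between medians of −0.58 and −0.40, and olfactory receptors at 0.04.

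Genes of 4 signalling lists together had 31 domains with 14 lower calls (45.2%, beside 15.4% of all wide domains). They had 0 higher calls, beside 2.85% of all wide domains, and a median of −0.21. These domains were also denser, with a median young level per kb of 7.04 against 6.53 over all wide domains. Among Wnt ligands and secreted modulators 10 of 32 genes lay in 11 domains with 4 lower calls (36.4%), at Sfrp2 (−0.68), Wnt3a (−0.70), Wnt1 (−0.46) and Sfrp5 (−0.45). Bmp4, a ligand that holds follicle stem cells at rest, fell by 0.81 (FDR 0.000896), beside Gdf7 (−0.71) and Gdf6 (−0.54), in a list with 7 of 42 genes in domains. Shh, the Hedgehog ligand of hair growth, fell by 0.54 (FDR 0.0266), Fgf5, the signal that ends hair growth, by 0.72 (FDR 0.000472) and Fgf8 by 0.47. Of the Notch list 6 of 18 genes lay in domains and 4 were called lower, the ligand Dll4 (−0.58) and the Hes factors Hes5 (−0.52), Hes2 (−0.55) and Hes3 (−0.38).

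On other lists, axon guidance genes had 15 of 66 genes in 17 domains, with 3 lower calls (17.6%, beside 15.4% of all wide domains), at Robo3 (−0.46), Unc5a (−0.52) and Sema5b (−0.43), and 1 higher call (5.88%, beside 2.85%), at the ephrin receptor gene Ephb2 (0.67, FDR 0.000179). The list of potassium channels had 25 of 87 genes in 27 domains and 1 lower call (3.7%), at Kcnip1 (−0.93), which encodes a channel-interacting protein and not a channel. Olfactory and vomeronasal receptors had 13 of 1264 genes in 11 domains, 0 called by the deposited DiffBind FDR and 0 at an unadjusted p under 0.05. Cdkn2a, the locus of the cell cycle inhibitors p16 and p19, was the only member of its list of Polycomb and CDK inhibitor genes in a wide domain and fell from 12.78 to 12.19 (−0.59, FDR 2.99e-05). Pcdh8, the only protocadherin, had −0.58 and was not called (FDR 0.0533).

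Genes of stem cell identity and of the ribosome lay outside the wide domains. None of 20 genes of stem cell identity and none of 78 ribosomal protein genes started in one, beside 7.56% of all protein-coding genes with a placed start. For the list of 20, a count of 0 lies near that share. Keratins had 5 of 47 genes in 2 domains, of which that over Krt78, Krt8 and Krt18, the last 2 keratins of simple epithelia, fell by 0.49 and that over Krt12 and Krt20 rose by 0.80. Of other cell types, domains at Pdgfra of fibroblasts (−0.46) and Sox17 of endothelium fell and that at Laptm5 of immune cells rose (0.46, FDR 0.0255), while those at Kit and Sox10 of melanocytes (−0.29 and −0.41), at Kdr and Des (−0.33 and −0.17) and at Cd207, Cd3e and Twist2 (−0.26, 0.31 and 0.06) were not called.

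H3K4me3, which marks promoters in use or poised for use, was found in 735 wide domains, or 23.3%, as 1066 of the table's 21390 peaks, 788 of them at a promoter. Of these 1066 peaks 922, or 86.5%, were called lower in old cells, against 79.1% of all H3K4me3 peaks. None was called higher by the deposited DiffBind FDR or had an unadjusted p under 0.05 in that direction, against 0.281% called higher of all H3K4me3 peaks. The median difference was −1.52 against −1.37 over all H3K4me3 peaks, a gap of −0.155. How the authors scaled the H3K4me3 libraries was not given in the labels, so a change shared by all peaks and a difference in scaling cannot be told apart. The H3K4me3 level in wide domains was lower at both ages, with medians of 8.73 in young and 7.05 in old cells against 9.69 and 8.27 over all peaks.

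H3K27me3 itself was called lower in 237 of the 735 domains with an H3K4me3 peak, or 32.2%, and higher in 3, with a median of −0.28. Of the 2422 domains without H3K4me3, 250, or 10.3%, fell and 87 rose by the FDR, the median being −0.02. Domains with H3K4me3 were wider, at a median of 20.7 kb against 14.6 kb. In the densest group alone the shares of lower calls were 44% of 386 domains with H3K4me3 and 17.6% of 403 without it. In the domains called lower for H3K27me3, 338 of 395 H3K4me3 peaks (85.6%) were called lower, with a median of −1.45. Over all 1066 H3K4me3 peaks in wide domains these values were 86.5% and −1.52, so the share was near that of all of them.

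The lowest H3K4me3 FDR was at Sox21, a gene that shapes the hair cuticle, where a peak of 10.3 kb (chromosome 14, 118229355 to 118239642) fell from 12.96 to 10.44, or by 2.52 (FDR 6.83e-14), while the H3K27me3 domain around it had −0.20 (FDR 0.456). Tfap2c, an AP-2 factor of the epidermis, fell by 2.47 for H3K4me3 in a domain with an H3K27me3 difference of 1.00 that was not called (FDR 0.193). Adam11, Nr2e1 and Dscaml1, genes with roles in neurons, had H3K4me3 differences of −2.86, −4.18 and −3.17, all called lower, and the domain around the Nr2e1 peak was called for H3K27me3 (−0.51, FDR 0.00147) while those around the peaks of Adam11 (−0.05) and Dscaml1 (−0.02) were not. Other domains inside Dscaml1 were called higher, as given above. The H3K4me3 peak of lowest FDR, of 2 in the Gata6 domain, had −1.37, beside −1.36 for H3K27me3 of the domain. Of 3 in the Nr4a2 domain it had −1.30, beside −1.32. The H3K4me3 values were near the median of all H3K4me3 peaks (−1.37), whereas the H3K27me3 median of wide domains was −0.09. The Prss16 domain with the largest fall overlapped 7 H3K4me3 peaks, of which that of lowest FDR fell from 11.52 to 10.23 (−1.29, FDR 4.61e-06), another was called at −0.66, and 4 had differences from 0.11 to 0.44 that were not called.

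**Figure D4:**
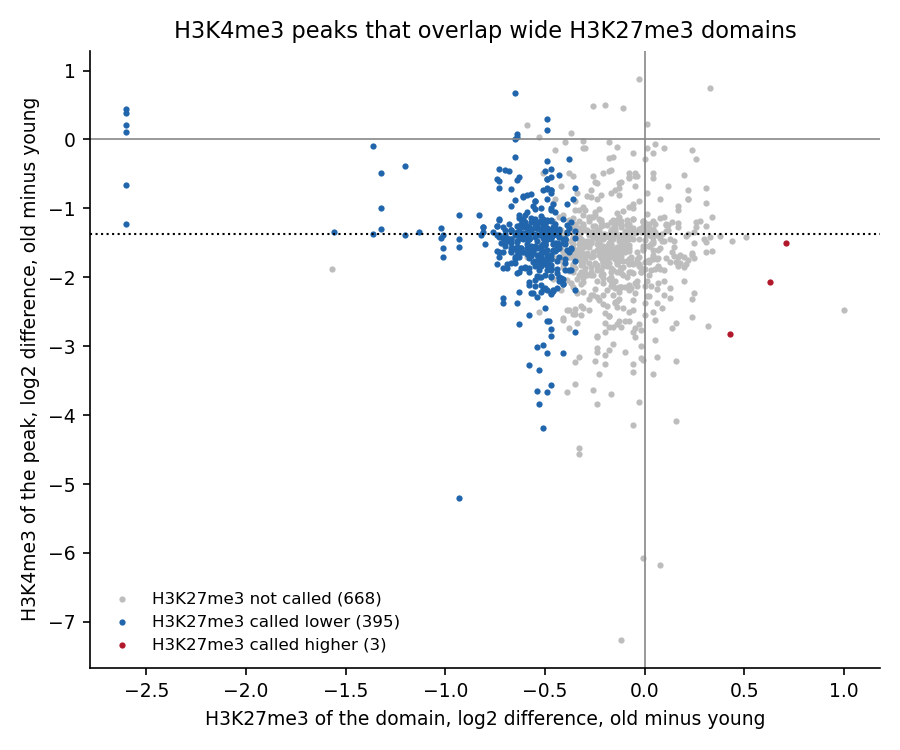
Each point is an H3K4me3 peak that overlaps a wide H3K27me3 domain, with the log2 difference of the domain's H3K27me3 on the x axis and of the peak's H3K4me3 on the y axis, both old minus young. The dotted line is the median of all H3K4me3 peaks (−1.37), and 1047 of the 1066 peaks lie below 0 whether their domain was called for H3K27me3 (blue, red) or not (grey).

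Pol2 was nearly absent from the wide domains, with 15 of 6789 peaks, or 0.221%, in 13 domains. Of these 6 were called lower in old cells, or 40%, against 52.9% of all Pol2 peaks, and 0 were called higher by the deposited DiffBind FDR or at an unadjusted p under 0.05, against 0.0442% over the table. The median difference was −1.49 against −1.72 over the table. The lowest FDRs were at E030030I06Rik (−3.94, FDR 1.39e-05), at H2-Q6, a class Ib histocompatibility gene with close paralogs that can share reads (−3.98, FDR 0.000296), at a peak with no named gene on chromosome 6 (−3.11), at Zpr1, a zinc finger gene (−2.65), and at 4930471M09Rik (−2.19), with Atp1b2, a sodium pump subunit gene, as the last call (−1.70, FDR 0.0342). At Nr4a2 the promoter peak had −0.66 and 2 smaller ones 0.10 and −0.05, none called. A pair of the 15 Pol2 peaks stood at the lowest level of the table at both ages.

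RNA could be compared only for the 597 genes that the authors' deposited table lists, all with an adjusted p up to 0.1, and the sign of its fold change rests on the header. In such bulk RNA, fewer cells of a type and less RNA per cell cannot be told apart. Of these, 18 started in a wide domain, 13 listed lower and 5 higher in old cells, while 236 of all genes in the authors' deposited table were lower and 361 higher. At an adjusted p under 0.05, 6 of the 18 were called lower and 5 higher in the authors' deposited table, against 18.8% and 38% of all listed genes. Matching genes by the authors' annotation of each domain gave 27 listed genes, 7 called lower and 10 higher. The direction with more calls thus changed with the match. In the authors' deposited table Ebf1, a factor of the B lineage, had the lowest adjusted p of the lower ones (log2 fold change −1.02, SE 0.18, adjusted p 1.15e-05), and its domain had an H3K27me3 difference of −0.38 that was not called. Tnxb, the matrix protein tenascin X, had −0.80 for RNA in the authors' deposited table (adjusted p 0.00192) and −1.20 for H3K27me3 (FDR 1.57e-06). The same pair of values was −0.92 and −0.65 for Fhod3, an actin regulator, and −0.78 and −1.36 for Gata6, with RNA from the authors' deposited table. Cacna1e, a calcium channel gene, and Sh3bp5, an exchange factor for Rab11, were called lower at −0.79 and −0.77 in the authors' deposited table, in domains not called for H3K27me3.

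Genes called higher in the authors' deposited table included Sox21 (1.219, SE 0.17, adjusted p listed as 0), Nptx1, a neuronal pentraxin (1.07), Igsf9b, a synaptic adhesion gene (1.07), and Mnat1, a subunit of the CDK-activating kinase (0.58). None of their domains was called for H3K27me3, and the difference was −0.53 at Igsf9b. Of 7 genes listed lower without passing 0.05 in the authors' deposited table, 5 were Stra6 (−0.66), Loxl1, an elastin cross-linker (−0.64), Crabp1, a retinoic acid binding protein (−0.64), Rasgrf1 (−0.59) and Sox6 (−0.66). Each of these 5 started in a domain called lower for H3K27me3. Stra6 started in domains called lower at −2.31 and −0.55 and also in one that was not called (−0.33). The called domains stood at −1.01 for Loxl1, −0.83 for Crabp1, −0.63 for Rasgrf1 and −0.47 for Sox6. The domains of the other 2, Slc12a7 (−0.20) and Prex1 (−0.08), were not called.

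ATAC-seq is the only assay with counts per library, for 7849 peaks that the authors selected on these same libraries, so the test below ranks listed peaks and its FDR does not bound false calls. Of the listed peaks 292, or 3.72%, overlapped a wide domain, and 126 of these lay within 1 kb of a start. Summed over the 292 peaks, young libraries had 88472, 92156, 94622 and 96974 counts and old libraries 67019, 60473, 63812 and 51719. The old libraries were thus below every young one, as they were over all listed peaks, where totals were 2456110 to 2773284 in young and 1572998 to 1946804 in old libraries. The mean count was lower in old cells at 273 of the 292 peaks, or 93.5%, against 85.9% of all listed peaks.

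Without scaling of the libraries, edgeR's quasi-likelihood test called 147 of the 292 peaks lower (50.3%) and 5 higher (1.71%), against 46.4% and 5.43% of all listed peaks. With TMM scaling, which moved all log2 fold changes up by a median of 0.59, edgeR called 0 lower, with 8 at an unadjusted p under 0.05, and 19 higher, against 0.701% and 13.9% of all listed peaks. DESeq2 with its own size factors called 1 lower and 19 higher. The lower calls therefore rest on comparing counts without scaling. Lower calls without scaling dropped to between 66 and 88 without young replicate 3 or 4 or old replicate 2, 3 or 4, and to 32 with a block on replicate number. There was 1 higher call without old replicate 3 and 10 without old replicate 4, and 2 or 3 without young replicate 2, 3 or 4 or old replicate 1 or 2 or with the block. Counts of the ages did not overlap at 139 of the 292 peaks, or 47.6%, against 40.7% of all listed peaks.

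The lowest FDR was again at Sox21, whose promoter peak (chromosome 14, 118236201 to 118237650) had 2030, 2130, 2126 and 1938 counts in young and 1379, 1081, 1289 and 1133 in old libraries. All young libraries were above all old ones, with means of 2056 ± 91.2 and 1221 ± 138 (SD, n = 4 each). The log2 fold change was −0.75 without scaling (edgeR FDR 0.00410) and −0.17 with TMM (edgeR FDR 0.917). A distal peak in the same domain (chromosome 14, 118231051 to 118231900) had 386 ± 35.7 against 160 ± 45.1 counts (−1.27, edgeR FDR 0.00654). At the promoter of Chst2, a sulfotransferase gene, the young mean was 1899 ± 260 counts and the old mean 1067 ± 172 (SD, n = 4 each), again without overlap. Peaks in introns at Mir721, inside Cux1, and of Arhgap26, a GTPase-activating protein gene, went from 296 ± 89.9 to 120 ± 25.4 and from 603 ± 85.0 to 320 ± 50.2 counts. The domain at Arhgap26 was also called lower for H3K27me3 (−0.55, FDR 0.00212), whereas those of Sox21, Chst2 and Mir721 were not called.

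The 5 peaks called higher kept their call with TMM, but 4 of them lost it in other fits. Of 8 fits that each left out a library, Pdgfrb lost its call in 7, I730028E13Rik in 6, Ahsg in 5 and BC107364 in 1, and the first 3 also lost it with the block. Near BC107364 (chromosome 3, 96453401 to 96453800) young libraries had 96, 75, 95 and 120 counts and old ones 155, 191, 296 and 194, without overlap. The log2 fold change was 1.11 (edgeR FDR 0.0166) without scaling and 1.72 with TMM, in a domain whose H3K27me3 fell by 0.65 (FDR 9.13e-05). Without old replicate 3 the log2 fold change was 0.90 and no longer called. The distal peak at Ctnnbl1, a splicing protein gene, had a young mean of 145 ± 36.7 counts and an old mean of 270.0 ± 43.3 (SD, n = 4 each), a log2 fold change of 0.90 with an edgeR FDR of 0.0226. Libraries overlapped between the ages at the other 3, at Ahsg, the fetuin gene of liver (312 ± 103 against 500 ± 101 counts), at I730028E13Rik (37.0 ± 14.8 against 79.0 ± 37.4) and near Pdgfrb, a receptor of pericytes (46.3 ± 13.9 against 88.8 ± 27.05). None of these 4 lay in a domain called for H3K27me3. Over all 292 peaks, 108 lay in domains called lower for H3K27me3. Of these 108, 103 had a lower mean ATAC-seq count in old cells, beside 273 of all 292 (93.5%). Without scaling 53 of the 108 were called lower, beside 147 of the 292 (50.3%), so both shares were near those of all 292. All 3 peaks in domains called higher for H3K27me3 had a lower mean count too.

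**Figure D5:**
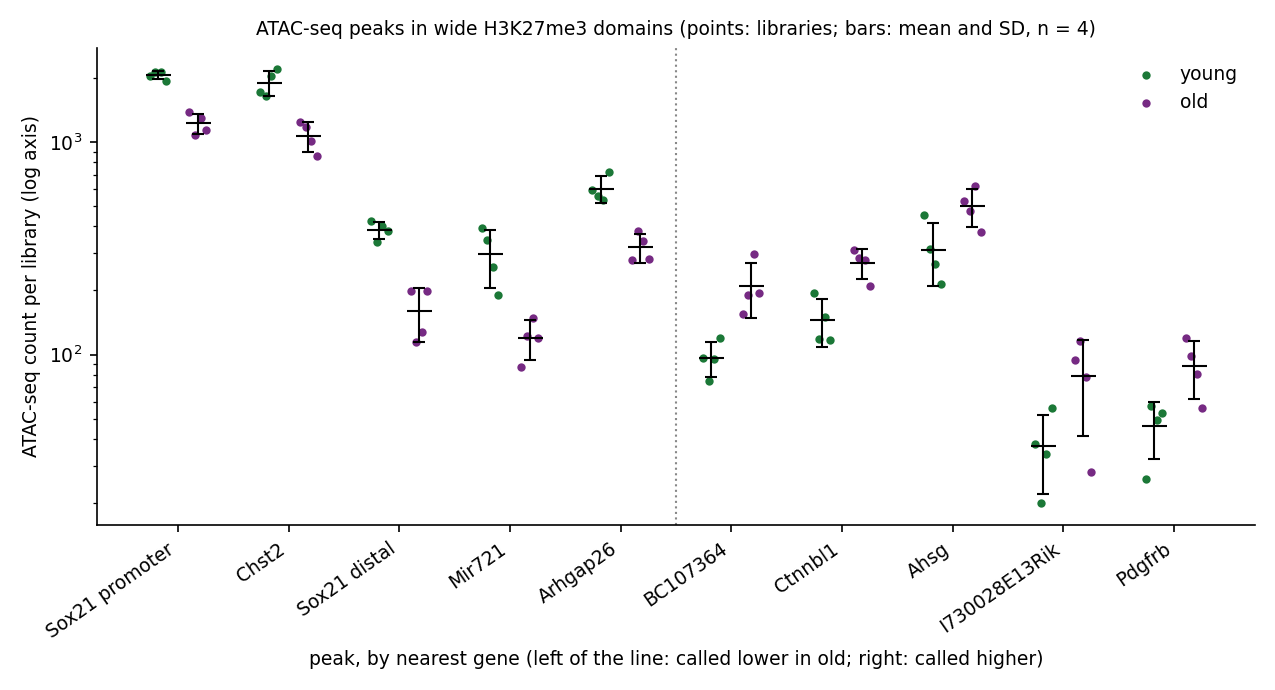
ATAC-seq counts per library, on a log axis, for the 5 peaks of lowest FDR in each direction that overlap a wide H3K27me3 domain, named on the x axis by the nearest gene. Points are libraries (green young, purple old) and black bars the mean with SD (n = 4 each). The ages do not overlap at the 5 peaks called lower, and they overlap at Ahsg, I730028E13Rik and Pdgfrb.

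CpG content was counted in RefSeq promoter windows. The windows of 300 bases, 250 before to 50 after the start of protein-coding genes on GRCm38.p6, held a median of 15 CG dinucleotides in the 1235 windows inside wide domains and 14 in all 20085 windows on chromosomes 1 to 19. At least 1 CG stood in 98.9% and 95.6% of them. Windows with a GC content above 55% and a CpG ratio, observed over expected, above 0.6 made up 43.3% and 42.2%. Inside domains called lower the median was 17 CG and the share of such windows 48.3% of 292, and on the 6 lists of transcription factors 18 CG and 52.2% of 161. The 13 windows in domains called higher, from 9 genes, had a median of 6 CG and 2 of the 13 passed both limits. A gene can have more than 1 window, as the 1235 windows came from 1029 genes, so these shares describe the windows and carry no test.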

How the data were processed

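For ChIP-seq the submitters' processing notes name BWA 0.7.15, GRCm38, MACS2 2.2.7.1 and DiffBind 2.14.0. Those tables hold no counts per sample but, as deposited by the authors, other values per merged peak: log2 levels, a log2 difference, a p-value and an FDR. How the authors normalized them was not given in the labels, and their difference was turned to old minus young. For ATAC-seq the notes name BWA 0.7.12, and the deposited table gives whole-number counts per peak and library with a log2 ratio and a −log10 p-value. For RNA they name STAR 2.5.2b, featureCounts and DESeq2 1.22.2. The deposited RNA table gives a mean normalized signal, log2 fold changes, a score (the Wald statistic) and p-values.

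Peaks were joined by an overlap of at least 1 bp. A gene starts in a domain where its RefSeq start (GRCm38.p6) or the authors' annotated start lies inside. ATAC-seq counts were tested with edgeR 4.0.16 in R 4.3.3 (quasi-likelihood F-test, filterByExpr, equal library sizes, two-sided, Benjamini-Hochberg over all 7849 peaks). TMM scaling, DESeq2 1.42.0, other widths, thresholds and overlaps were alternatives. Tested on simulated data of 7849 peaks, the fit called 155 of 200 peaks that had a log2 change of 1, with 9 false calls. The simulated libraries had equal depth, with rises and falls in equal number and no selection of peaks. It therefore cannot show how the fit behaves on the selected, mostly lower peaks used here. Same-numbered young and old libraries did not deviate together (correlations −0.186 to 0.0354), so replicate numbers were not taken as pairs. No pair of libraries agreed within sampling noise (lowest chi-square per degree of freedom 10.8). The depth of ChIP-seq and RNA libraries was unknown. Promoters on chromosome 18 were not shown.

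The members and gene lists were chosen with earlier results of these data known. Named domains are the 10 widest, the 10 largest falls and rises among those called, the 5 of lowest FDR, the 3 on either side of the width minimum, and 2 to 4 per gene list by lowest FDR. For other assays the 5 of lowest FDR or adjusted p in each direction are named, and others were chosen after their values were seen. Tables were read with Python 3.11.15 and pandas 2.3.3. A few genes that this rule names are not reported here.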

Additional observations from a re-analysis of the deposited data

How the results depend on the processing

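In wide H3K27me3 domains the lower calls outnumbered the higher ones at every width and FDR threshold tried. There were 142, 31 and 17 higher calls at width minimums of 8000, 15000 and 20000 bp, and 245 lower calls at 20000 bp. An FDR threshold of 0.01 gave 295 lower and 33 higher calls, and 0.1 gave 136 higher. Centring on all peaks moved the median from −0.09 to −0.21. When peaks under 3000 bp apart were joined first, the median of the 5526 joined domains was 0.0476, a reversed sign. Joining replaced the listed difference by a width-weighted mean over the joined peaks and let in groups of narrower peaks. The sign of the median thus rests on how domains are defined and measured. For H3K4me3 centring left −0.155. For Pol2 the median became 0.23 when centred and −0.42 with at least 50% of the peak inside or a width minimum of 15000 bp, with 3 lower calls each. RNA calls became 7 lower and 10 higher, of 27 genes, with the authors' annotation of domains to genes. At an adjusted p threshold of 0.1, 13 of the 18 genes were called lower.

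For ATAC-seq, TMM scaling gave 0 lower and 19 higher calls and a median of −0.0771, and DESeq2 with its size factors 1, 19 and −0.0883. DESeq2 with size factors of 1 gave 9 higher calls. The replicate block gave 32 lower and 2 higher calls, all 32 among the 147. Leaving out each replicate gave 66 to 129 lower and 1 to 10 higher calls and medians of −0.71 to −0.60. The cause of these changes was not tested. The low number of libraries and the group means without spread limit all ChIP-seq results.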

Other observations

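Some calls of the same direction lay in runs along the chromosome. Runs of at least 4 such calls, each under 500 kb from the next with no opposite call between, numbered 13 and held 66 of the 487 lower calls (13.6%) and 10 of the 90 higher calls (11.1%). On chromosome 9, 12 of 25 wide domains between 60753774 and 61888309 were called lower, none with a protein-coding start, and their differences were −1.30 to −0.44. All 7 domains from 136226259 to 136385861 on chromosome 5, at Cux1 and Sh2b2, were called lower. So were all 4 of a run on chromosome 6, between 6749606 and 6885376 (−0.91 to −0.64). Dlx5 and Dlx6 both start in a single domain of that run, the one from 6839049 to 6885376 (−0.72). All 4 domains at Lhfpl2 on chromosome 13 (−0.81 to −0.68) and 8 of 13 over 910 kb around Sox6 on chromosome 7 were also called lower. A run upward covered 6 of 6 domains over 210 kb inside Dscaml1 on chromosome 9 (0.53 to 1.21). On chromosome 5, 4 of 8 domains over 855 kb (114548476 to 115403752) were called higher (0.46 to 0.68). The protein-coding genes that these 4 overlapped were 4930519G04Rik and Msi1, a neural RNA-binding protein gene.

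Chromosomes differed in level of change. The median of wide domains was lowest on chromosomes 3, 10 and 18, at −0.29, and on chromosome 14, at −0.275. Of the 301 domains on these 4 chromosomes 0 were called higher by the deposited DiffBind FDR, beside 2.85% of all wide domains. In that direction 11 had an unadjusted p under 0.05. These 4 were picked after their values were seen, as the only chromosomes with 0 higher calls, so the pooled 0 tests nothing. On chromosome 12 the median was −0.21, with 28.4% of domains called lower and 4.55% higher. The median was 0 on chromosome 2 and 0.02 on chromosome 11. Peaks under 10 kb had medians of −0.03, 0.06, −0.01 and 0 on chromosomes 3, 10, 18 and 14, against 0.20 on chromosomes 2 and 11.

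A few wide domains had little or no signal. Those at Loxl2 and LOC115488278 on chromosome 14 stood at the lowest level of the authors' deposited table at both ages, and Gm21451 on chromosome 14 (a young level of 5.07) and Cd300ld4 on chromosome 11 (5.34) had levels under 6.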
